A study of Mus musculus with 8 samples.

Results

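The 6 genes described here carry out the main steps in the life of GABA, the inhibitory transmitter of olfactory bulb interneurons: Gad1 and Gad2 (synthesis), Slc32a1 (loading into vesicles), Slc6a11 (uptake) and Abat and Aldh5a1 (breakdown). They were taken by symbol from a table of 19583 entries, and each symbol matched 1 entry, so all 6 were found. Total RNA was sequenced from mouse olfactory bulbs at postnatal day 30, and both groups had mixed C57BL/6J, 129S6 and CD1 ancestry. The double mutant group (4 libraries) carried the hGFAP-Cre transgene together with Sp8 Flox/Flox and Sp9 Flox/Flox alleles. The wild-type group (4 libraries) came from littermate controls, for which no transgene or floxed allele is named. Cre from this transgene acts in radial glia and the cells that descend from them, astrocytes included, so the deletion is not restricted to GABA neurons. Effects of the transgene and of the floxed alleles cannot be told apart from those of losing both factors. Libraries are further labelled by letter, double mutants with A or B and wild types with C or D, 2 libraries to a letter. Nothing says that they came from separate animals, so p-values measure only how these libraries vary, and that variation may be technical.

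GABA is made from glutamate by glutamate decarboxylase, which exists in 2 forms. The product of Gad1 is found through the whole neuron and supplies most GABA, while that of Gad2 is concentrated at axon terminals. Slc32a1 encodes the transporter that fills synaptic vesicles with GABA. Released GABA is taken up by membrane transporters, among which the product of Slc6a11 is best known from astrocytes. In mitochondria of neurons and astrocytes the transaminase encoded by Abat then turns GABA into succinic semialdehyde, and the dehydrogenase encoded by Aldh5a1 turns that into succinate, which enters the citric acid cycle. In the bulb the granule and periglomerular interneurons are mostly GABAergic, whereas the mitral and tufted projection neurons release glutamate.

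Depth was estimated at 11888672 to 19040796 fragments per library, and between 13112 and 13481 genes per library had 1 FPKM or more. FPKM counts fragments relative to transcript length and sequencing depth. Levels of different genes can be set side by side only as far as the lengths used are right, and these are not given. Both targeted genes were reduced in all 4 double mutant libraries. Sp8 went from 30.5 ± 1.0 FPKM in wild type to 7.27 ± 0.82 FPKM in double mutants (SD, n = 4 per group), and Sp9 went from 24.1 ± 0.9 to 6.74 ± 0.53 FPKM. Of 14349 genes tested with limma, 36.5% were called lower and 28.8% were called higher in the double mutant at an adjusted p below 0.05, together 65.3%. Counts of GABA genes below are to be read against these shares. Under upper quartile scaling of the libraries, which moved the median log2 fold change of all genes by 0.10, the calls split into 3439 lower and 5439 higher, against 5237 lower and 4127 higher as deposited.

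All 6 genes were called lower, at a median log2 fold change of -0.46, against -0.04 for all genes tested. The falls differed in size, and that of Gad2 lay between those of Gad1 and Slc32a1 and those of the other genes. Gad1, Slc32a1 and Gad2, the genes of synthesis and vesicle loading, went down to between 42.2% and 61.5% of their wild-type means. Slc6a11, Abat and Aldh5a1, the genes of uptake and breakdown, went down to between 85.7% and 89.1%. For 5 of the 6 the values of the groups did not overlap, where 33.4% of tested genes were lower, and 25.7% higher, without overlap. Aldh5a1 was the exception. Fold changes compare the double mutant with the wild type and were computed on log2(FPKM + 0.5). In bulk tissue fewer cells of a type and less RNA per cell cannot be told apart.

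**Figure D1:**
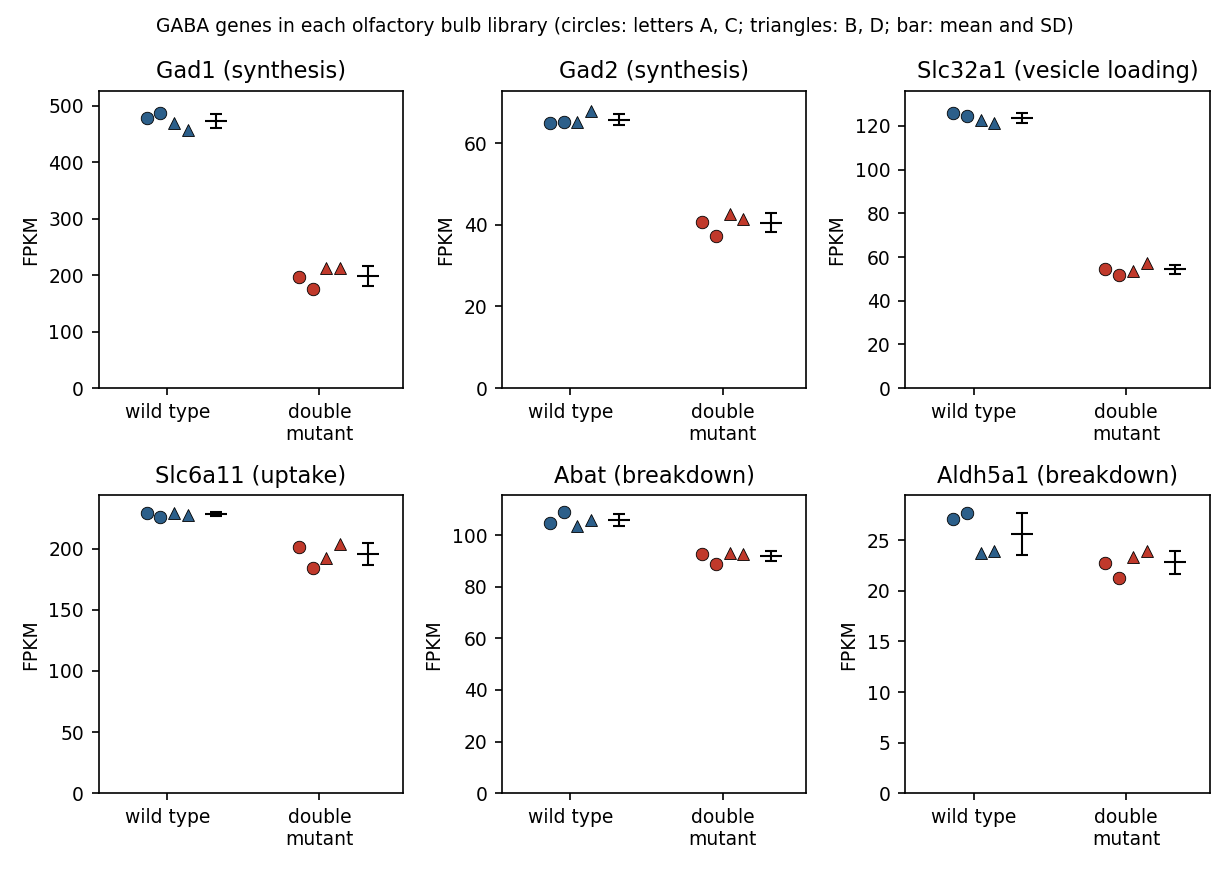
FPKM of the 6 GABA genes (vertical axes, each from 0) in the 4 wild-type and 4 double mutant libraries, with points for libraries (circles for letters A and C, triangles for B and D) and bars for the mean and SD. Gad1, Gad2 and Slc32a1 separate widely, Slc6a11 and Abat narrowly, and the Aldh5a1 values of the groups overlap.

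Gad1 (ENSMUSG00000070880, chromosome 2, 70553072 to 70602014, plus strand, GRCm38) was the most abundant of the 6 in wild type. It measured 479, 486, 469 and 456 FPKM in wild-type replicates 1 to 4 and 197, 175, 213 and 213 FPKM in double mutant replicates 1 to 4. The highest double mutant value lay far below the lowest wild-type value, and both libraries of letter A lay below both of letter B. The log2 fold change was -1.25 ± 0.06 (SE, n = 4 per group, limma adjusted p = 2.93e-08, exact permutation p = 0.0286). That p is the smallest which an exact two-sided permutation test of 4 against 4 libraries can give, and the test treats single libraries as exchangeable. Among all entries of the table Gad1 ranked 59 by its mean level in wild type and 231 in the double mutants. Its fall was the 175th largest of the 14349 tested genes. Only 2.09% of these genes were called lower with a log2 fold change of -1 or below, and Gad1 and Slc32a1 were among them.

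Gad2 (ENSMUSG00000026787, chromosome 2, 22622205 to 22693874, plus strand) fell less. It measured 64.9, 65.2, 65.1 and 67.9 FPKM in the wild-type libraries and 40.6, 37.2, 42.6 and 41.4 FPKM in the double mutants. The group means were 65.8 ± 1.4 and 40.5 ± 2.3 FPKM (SD, n = 4), and the log2 fold change was -0.70 ± 0.04 (SE, n = 4 per group, limma adjusted p = 2.09e-07, exact permutation p = 0.0286). As with Gad1, the lowest value was that of double mutant replicate 2.

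The unequal fall of the decarboxylase genes could be followed within each library, where it does not depend on how libraries are scaled. The Gad1 to Gad2 ratio of FPKM was 7.38, 7.46, 7.20 and 6.73 in the wild-type libraries and 4.84, 4.72, 4.99 and 5.14 in the double mutants, without overlap. Gad1 made up 87.8% ± 0.5 of the summed FPKM of both genes in wild type and 83.1% ± 0.5 in double mutants (SD, n = 4, exact permutation p = 0.0286). The size of these shares rests on transcript lengths that are not given. Wild-type replicate 1 had 28584 fragments for Gad1 and 8345 for Gad2, with annotated exons of 7639 and 5876 bases. The summed FPKM of the pair went from 538 ± 12 to 240 ± 20 (SD, n = 4). Double mutant bulbs therefore held fewer decarboxylase transcripts relative to all others, with a larger share of Gad2 among them.

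Slc32a1 (ENSMUSG00000037771, chromosome 2, 158610767 to 158615748, plus strand) fell almost as much as Gad1. Its values were 126, 125, 123 and 121 FPKM in wild type and 54.7, 52.0, 53.6 and 57.1 FPKM in the double mutants. The double mutant mean was 43.9% of wild type, with a log2 fold change of -1.18 ± 0.03 (SE, 4 libraries per group, adjusted p by limma = 2.61e-09, exact permutation p = 0.0286). Its annotated exons overlap 697 bases of the opposite-strand gene Gm14205, which is not analysed here, and since no strand setting is stated, reads of that stretch cannot be assigned. The Gad1 to Slc32a1 ratio was 3.80, 3.90, 3.82 and 3.77 in wild type and 3.59, 3.37, 3.97 and 3.72 in double mutants, so the groups overlapped. The log2 difference of this ratio was -0.07, with a 95% interval from -0.19 to 0.05 (exact permutation p = 0.2286, adjusted over 15 pairs of genes 0.2857). It passed with a difference of -0.11 when double mutant replicate 3 was left out and of -0.15 under quantile normalization (adjusted exact permutation p = 0.0357 in both). Gad2 set against Slc32a1 went the other way, from 0.532 ± 0.020 to 0.745 ± 0.036 (SD, n = 4), without overlap.

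Since these genes had the 3 largest falls of the 6, the stretch upstream of their annotated starts is shown here, with that of Slc6a11 as the member with the smaller fall that held the most matches. RefSeq windows of 300 bases on GRCm38.p6 (250 before the RefSeq start and 50 after it) were matched by symbol for 5 of the 6 genes, with none for Abat. Printed below, 5′ to 3′ on the strand of the gene, is the part of each window upstream of any annotated start in it (RefSeq or GENCODE M21), at chr2:70561879-70562041, chr2:22622077-22622204, chr2:158610508-158610757 and chr6:114130991-114131240 in the order shown. The annotation gives Gad1 a further start at 70553072, upstream of its window. Capitals mark the searched motifs.
Gad1: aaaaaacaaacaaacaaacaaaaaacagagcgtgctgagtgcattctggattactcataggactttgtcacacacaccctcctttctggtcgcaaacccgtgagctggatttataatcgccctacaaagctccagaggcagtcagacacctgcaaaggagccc
Gad2: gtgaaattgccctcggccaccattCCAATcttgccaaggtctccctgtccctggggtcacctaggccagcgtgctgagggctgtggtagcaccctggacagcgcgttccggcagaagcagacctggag
Slc32a1: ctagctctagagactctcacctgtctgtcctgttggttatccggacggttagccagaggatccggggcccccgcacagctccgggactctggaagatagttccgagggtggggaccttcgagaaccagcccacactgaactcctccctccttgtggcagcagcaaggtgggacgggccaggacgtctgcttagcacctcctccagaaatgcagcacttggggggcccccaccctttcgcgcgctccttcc
Slc6a11: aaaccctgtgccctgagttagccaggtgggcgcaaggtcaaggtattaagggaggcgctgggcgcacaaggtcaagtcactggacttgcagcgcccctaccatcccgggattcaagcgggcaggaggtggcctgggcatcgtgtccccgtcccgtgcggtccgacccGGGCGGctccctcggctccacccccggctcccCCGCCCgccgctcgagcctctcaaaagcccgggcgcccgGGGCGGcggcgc
The motifs were the GC box GGGCGG, bound by factors of the Sp family (both strands), the homeodomain core TAATTA, the TATA box TATAAA (gene strand) and the CCAAT box (both strands). Over the full windows the GC box occurred 4 times for Slc6a11 and 1 time for Gad1, where the match on the opposite strand began 8 bases before the RefSeq start and beyond the printed part. No match to these letters lay in the windows of Gad2, Slc32a1 and Aldh5a1. Of 14294 promoters of genes in the table, 53.5% held at least 1 GC box, so holding or missing one is common. CCAAT matched 2 times for Gad2 and 1 time for Aldh5a1, and 38.4% of promoters held it. No window of the 5 held TAATTA or TATAAA, which occurred in 3.78% and 6.48% of promoters. The windows of the 5 genes had between 60.0% and 72.3% G and C, with Slc6a11 the highest, against a median of 58.3%. These matches describe letters in a window and were not tested for binding.

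Slc6a11 (ENSMUSG00000030307, chromosome 6, 114131241 to 114249952, plus strand) was nearly constant across the wild-type libraries, at 229, 226, 229 and 228 FPKM, a spread of 0.694% of the mean (SD, n = 4). In the double mutants it measured 201, 184, 192 and 204 FPKM. All double mutant libraries were lower than any wild-type library, and the log2 fold change was -0.22 ± 0.03 (SE, n = 4 per group, limma adjusted p = 0.000185, exact permutation p = 0.0286). Under upper quartile scaling the change was -0.11 (limma adjusted p = 0.0155). Set against the median of all tested genes it was -0.19 as deposited, -0.18 under that scaling and -0.17 under quantile normalization.

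Abat (ENSMUSG00000057880, chromosome 16, 8513429 to 8621568, plus strand) showed a fall of the same order. It measured 104.5, 109, 104 and 106 FPKM in wild type and 92.6, 88.8, 93.1 and 92.7 FPKM in double mutants, with a log2 fold change of -0.20 ± 0.03 (SE, 4 libraries per group, adjusted p by limma = 0.000108, exact permutation p = 0.0286). Under upper quartile scaling it was -0.09 (limma adjusted p = 0.0165), and under quantile normalization it was -0.13 (limma adjusted p = 0.000832). The Slc6a11 to Abat ratio was 2.16 ± 0.06 in wild type and 2.13 ± 0.07 in double mutants (SD, n = 4), a log2 difference of -0.02 with a 95% interval from -0.10 to 0.05.

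Aldh5a1 (ENSMUSG00000035936, chromosome 13, 24907579 to 24937661, minus strand) was the least abundant of the 6 and its call was the least firm. It measured 27.1 and 27.7 FPKM in the wild-type libraries of letter C, 23.7 and 23.9 FPKM in those of letter D, and 22.7, 21.3, 23.4 and 23.9 FPKM in the double mutants. The double mutant libraries thus lay below letter C but reached into letter D. The log2 fold change was -0.16 ± 0.06 (SE, n = 4 per group) at a limma adjusted p of 0.0336, while the exact permutation test gave p = 0.0857. Without letter C it was -0.06 and without letter A it was -0.11, and neither passed the limma test (adjusted p = 0.363 and 0.21). The call was also lost when double mutant replicate 1 or 2 or wild-type replicate 1 or 2 was left out, with changes from -0.16 to -0.12. Its exons overlap 796 bases of 4932702P03Rik and 203 bases of 9330162012Rik on the opposite strand. These neighbours measured 0 to 0.1 FPKM and 1.39 to 3.72 FPKM.

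The order of the 6 genes by level differed between the groups. In wild type it was Gad1, Slc6a11, Slc32a1, Abat, Gad2 and Aldh5a1, and the ranges of neighbours in that order did not overlap. In the double mutants Gad1 (175 to 213 FPKM) and Slc6a11 (184 to 204 FPKM) overlapped, with Gad1 the higher in 2 of 4 libraries. Abat (88.8 to 93.1 FPKM) stood above Slc32a1 (52.0 to 57.1 FPKM) in all 4 double mutant libraries, while Slc32a1 was above Abat in all 4 wild-type libraries. Gad2 and Aldh5a1 kept the fifth and sixth places. Between 1090 and 28584 fragments lay behind each of these values. The order is that of the deposited FPKM and rests on transcript lengths that are not given. Wild-type replicate 1 had 3096 fragments for Slc32a1, 9259 for Abat and 8345 for Gad2. The annotated exons of these genes cover 2797, 7748 and 5876 bases. With other lengths the places of these 3 genes could differ.

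**Figure D2:**
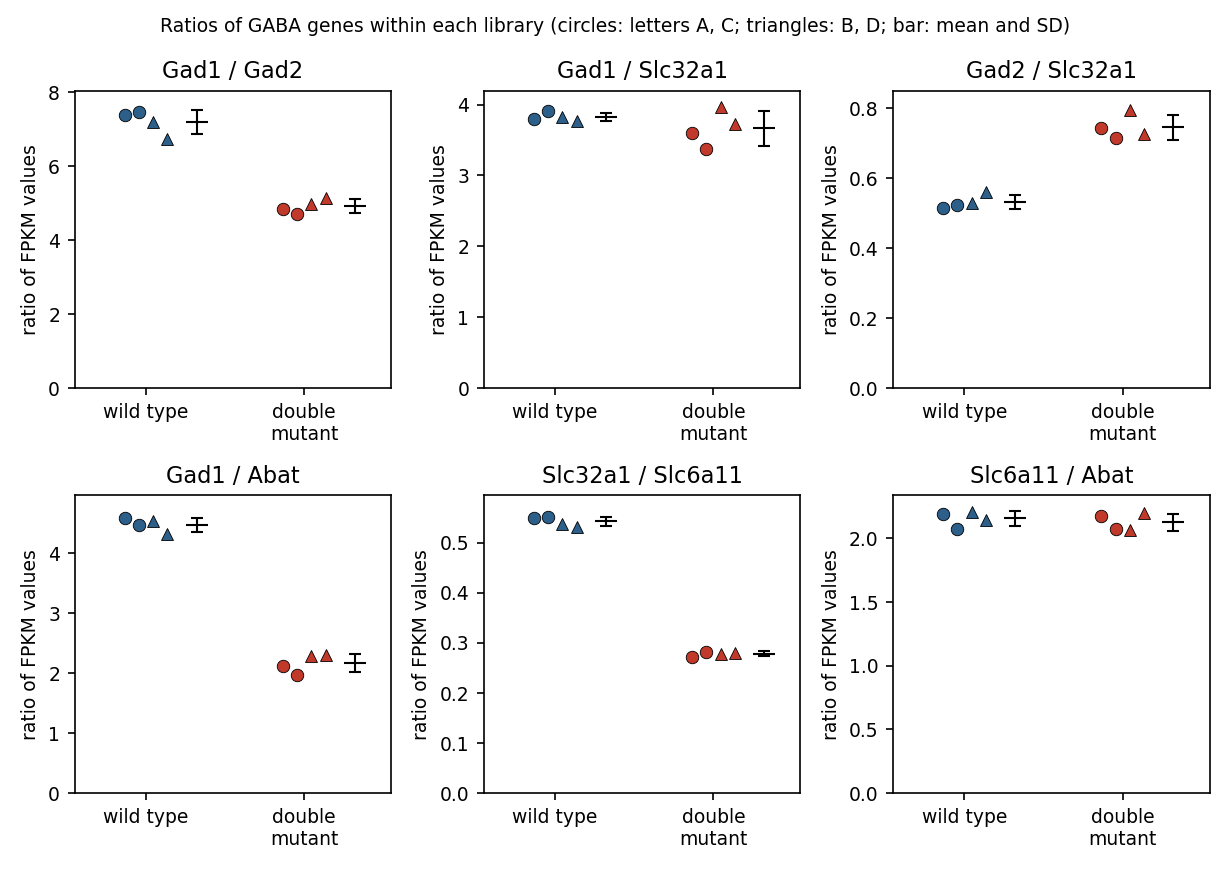
Ratios of FPKM values of pairs of GABA genes within each library (vertical axes from 0), for wild-type and double mutant libraries, with the mean and SD as bars. The Gad1 to Gad2 ratio went from 7.19 to 4.92 and the Gad1 to Abat ratio from 4.47 to 2.17, while the ratios of Gad1 to Slc32a1 and of Slc6a11 to Abat overlap between the groups.

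All 15 pairs of the 6 genes were compared in this way, with the log2 ratio within each library and an exact two-sided permutation test. The ratio differed between the groups in 11 pairs (adjusted exact permutation p = 0.039 in each). Since 65.3% of all tested genes were called in either direction, other pairs of genes may often differ too. Their share was not computed, so the count is not a trait of these 6 genes. The 4 pairs that did not pass were Gad1 with Slc32a1, Slc6a11 with Abat, Slc6a11 with Aldh5a1 and Abat with Aldh5a1. The genes thus sorted into Gad1 with Slc32a1, Gad2 alone, and the uptake and breakdown genes. A missed threshold does not show that a pair moved alike. The 95% interval was from -0.22 to 0.09 for Slc6a11 with Aldh5a1 and from -0.18 to 0.09 for Abat with Aldh5a1. The ratio of Gad1 to Abat, the first enzyme of breakdown, was 4.58, 4.47, 4.53 and 4.31 in wild type and 2.12, 1.98, 2.29 and 2.29 in double mutants. The ratio of Slc32a1 to Slc6a11, which sets vesicle loading against uptake, went from 0.543 ± 0.010 to 0.278 ± 0.005 (SD, n = 4).

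Other genes of GABA metabolism did not all share the direction of the 6. Of 27 listed genes, 26 passed the filter on low values, and 4 of these were called lower and 16 higher (background 36.5% and 28.8%), with a median log2 fold change of 0.31. The gene that was not tested was Gadl1, which stayed at 0.50 FPKM or less in every library. Pdxk, the kinase gene for pyridoxal phosphate, the cofactor of decarboxylases and of the transaminase, fell by 0.22 on the log2 scale. With upper quartile scaling its change was -0.11, with quantile normalization -0.12, and it stayed called in both (limma adjusted p = 0.0158 and 0.00553). Csad, a related decarboxylase of taurine synthesis, rose from 8.76 ± 0.87 to 11.7 ± 0.4 FPKM (SD, n = 4).

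All 4 genes of the side route that makes GABA from putrescine rose. Aldh1a1, an aldehyde dehydrogenase, went from 15.4 ± 0.4 to 25.2 ± 2.4 FPKM (SD, n = 4), a log2 fold change of 0.68 ± 0.06 (SE, 4 libraries per group, adjusted p by limma = 3.23e-06). The monoamine oxidase gene Maob rose by 0.54 and Odc1, the ornithine decarboxylase that makes putrescine, rose by 0.53 on the log2 scale. These genes also act outside GABA synthesis, Maob in the breakdown of monoamines and Aldh1a1 in retinoic acid synthesis.

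Of 10 genes that supply glutamine and glutamate, 6 rose, 3 fell and 1 did not pass. The gene that did not pass was the glutamine transporter gene Slc38a2 (0.16, limma adjusted p = 0.0605), named after its values were seen. It was called higher under upper quartile, trimmed mean and quantile scaling (0.20 to 0.28), in the scaled columns (0.18) and with the replicate block (limma adjusted p = 0.0029). It was also called higher without double mutant replicate 1 or 2, wild-type replicate 4, letter A or letter D (0.20 to 0.28). Glul, the glutamine synthetase of astrocytes, was at 751, 778, 744 and 758 FPKM in wild type and 1159, 1106, 1087 and 1122 FPKM in double mutants. That is a log2 fold change of 0.56 ± 0.03 (SE, 4 libraries per group, adjusted p by limma = 6.65e-08). Slc38a3, a glutamine transporter of astrocytes, rose by 0.60 from 95.1 ± 1.8 to 144 ± 4 FPKM (SD, n = 4). Slc1a1, a neuronal transporter that brings glutamate into GABA neurons, went the other way, from 32.8 ± 0.6 to 20.9 ± 1.9 FPKM (log2 fold change -0.65 ± 0.06, limma adjusted p = 3.37e-06). The other genes that fell were the glutaminase gene Gls2 (-0.34) and the neuronal glutamine transporter gene Slc38a1 (-0.13), which were named after their values were seen. The call of Slc38a1 was lost under upper quartile (-0.02), quantile (-0.01) and trimmed mean scaling (-0.10), with limma adjusted p from 0.0677 to 0.859. It was lost on the means of letters and without the trend (limma adjusted p = 0.1005 and 0.0527), and also when double mutant replicate 1 or wild-type replicate 1, 3 or 4 was left out (limma adjusted p from 0.0509 to 0.0579). Without letters A, C and D the change was -0.06, -0.14 and -0.12, and it passed in none of these.

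The other GABA transporter genes analysed here rose. Slc6a13 (chromosome 6, 121300227 to 121337733), best known from meninges and liver, went from 17.5, 20.3, 20.2 and 21.9 FPKM to 38.7, 39.6, 38.6 and 35.0 FPKM. Its log2 fold change was 0.91 ± 0.06 (SE, n = 4 per group, limma adjusted p = 6.35e-07). Slc6a12, the betaine and GABA transporter gene, was low at 1.40 ± 0.25 and 2.49 ± 0.63 FPKM, and double mutant replicate 4 lay within the wild-type range. It passed with limma (log2 fold change 0.63, adjusted p = 0.00646) but not with the exact permutation test (p = 0.0857), nor with limma without letter A (0.45, adjusted p = 0.0872). The 6 listed markers of meninges and fibroblasts all rose in the same libraries. Their summed level was 62.4 to 72.4 FPKM in wild type and 123 to 142 FPKM in double mutants, and no marker was at 0 in any library. Their part in the rise of both transporter genes was not tested.

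Downstream of the transaminase, 3 of 8 genes rose and 5 did not pass. Those that rose were Adhfe1 (0.62), which oxidises gamma-hydroxybutyrate, Suclg2 (0.60), a succinate-CoA ligase subunit, and Akr7a5 (0.22), a reductase of succinic semialdehyde that was named after its values were seen. The call of Akr7a5 was lost without letter A or without letter D (0.18 in both, limma adjusted p = 0.0846 and 0.104). Its groups overlapped, and the exact permutation test gave p = 0.0571. The succinate dehydrogenase gene Sdha, the most abundant of the 8, measured 139 ± 3 and 134 ± 3 FPKM (SD, n = 4), a log2 fold change of -0.05 that turned to 0.06 under upper quartile scaling. The other genes that did not pass, named after their values were seen, were called under some alternatives. Suclg1, a succinate-CoA ligase subunit, was called higher under upper quartile and quantile scaling (0.15 and 0.13, limma adjusted p = 0.0113 and 0.00808). Ogdh, a subunit of oxoglutarate dehydrogenase, was called higher under upper quartile, quantile and trimmed mean scaling and in the scaled columns (0.06 to 0.14). Sucla2, another ligase subunit, was called lower with the replicate block (-0.08, limma adjusted p = 0.0356). It was also called lower without double mutant replicate 3, wild-type replicate 2, letter B or letter C (-0.11 to -0.10), but had the opposite sign under upper quartile scaling. D2hgdh, a hydroxyglutarate dehydrogenase gene, was called lower under quantile normalization and without wild-type replicate 1 (-0.16 and -0.17).

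**Figure D3:**
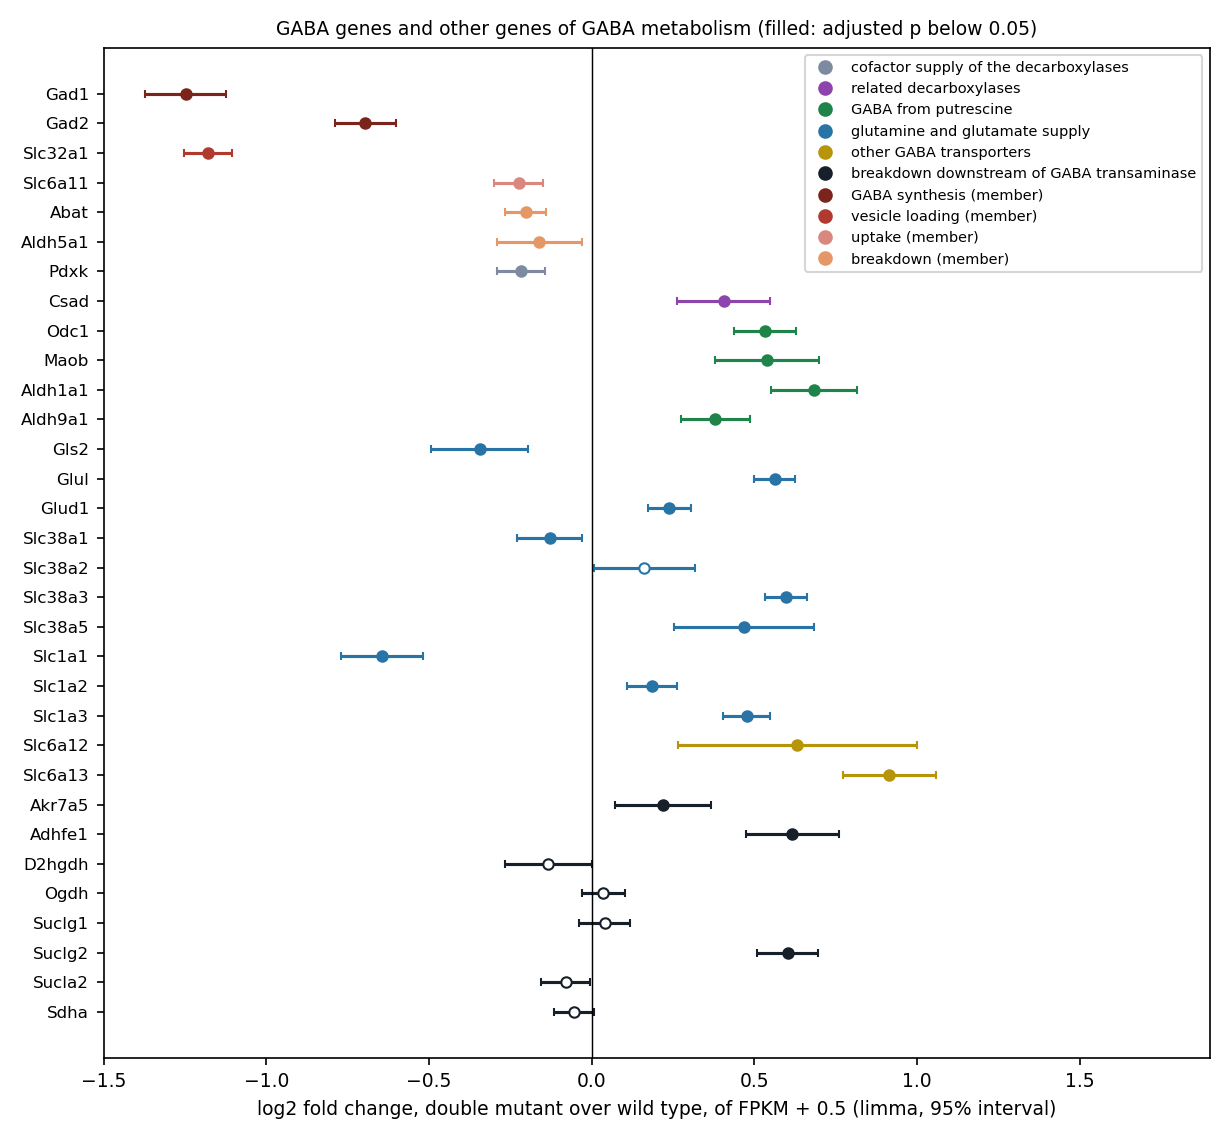
Log2 fold changes (double mutant over wild type, horizontal axis) of the 6 GABA genes and of 26 other genes of GABA metabolism, with limma's 95% intervals, points filled where the adjusted p was below 0.05 and colours for the role. The 6 GABA genes lie left of 0, and most genes of the other lists lie right of it.

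The cell type markers of these libraries moved beside the GABA genes. All 9 markers of bulb interneurons fell (background 36.5%), with a median of -1.33, and their summed level was 43.5% of wild type, beside 42.2% for Gad1 and 43.9% for Slc32a1. The calretinin gene Calb2, the most abundant of them, fell by 0.72, where Gad2 fell by 0.70. Of 8 markers of neurons in general 7 fell (median -0.46), with the synaptic gene Snap25 down by 0.43. All 7 markers of the glutamatergic projection neurons rose (background 28.8%, median 0.79), with Slc17a7 up by 0.56. The part of these cell types in the fall of the GABA genes was not tested.

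Each of the 11 astrocyte markers rose (median 0.59), for a summed level of 959 to 1060 FPKM in wild type and 1431 to 1476 FPKM in double mutants. Aldoc, the most abundant, rose by 0.26. The list shares Slc1a2 and Slc1a3 with the glutamate supply list, and Glul is an astrocyte gene as well. Slc6a11, the GABA transporter gene best known from astrocytes, fell in the same libraries in which these 11 markers rose, and their part in its change was not tested. Of 6 microglia markers 5 rose (Ctss by 0.64), and all 5 endothelial (Cldn5 by 1.03) and all 4 olfactory sensory neuron markers (Gng13 by 0.93) rose. So did all 6 of meninges and fibroblasts, with Dcn up by 0.89. Of 6 oligodendrocyte markers 2 rose, 1 fell and 3 did not pass. The highest of them, Mbp, measured 817 ± 30 and 858 ± 105 FPKM (SD, n = 4) and passed only without double mutant replicate 1 (0.14, limma adjusted p = 0.0419) or without letter A (0.20, limma adjusted p = 0.00676). The counts of oligodendrocyte calls depended on the letters. Without letter A there were 4 higher and 0 lower, and without letter B there were 1 higher and 3 lower. Without letter C there were 1 higher and 1 lower, and without letter D there were 1 higher and 0 lower.

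**Figure D4:**
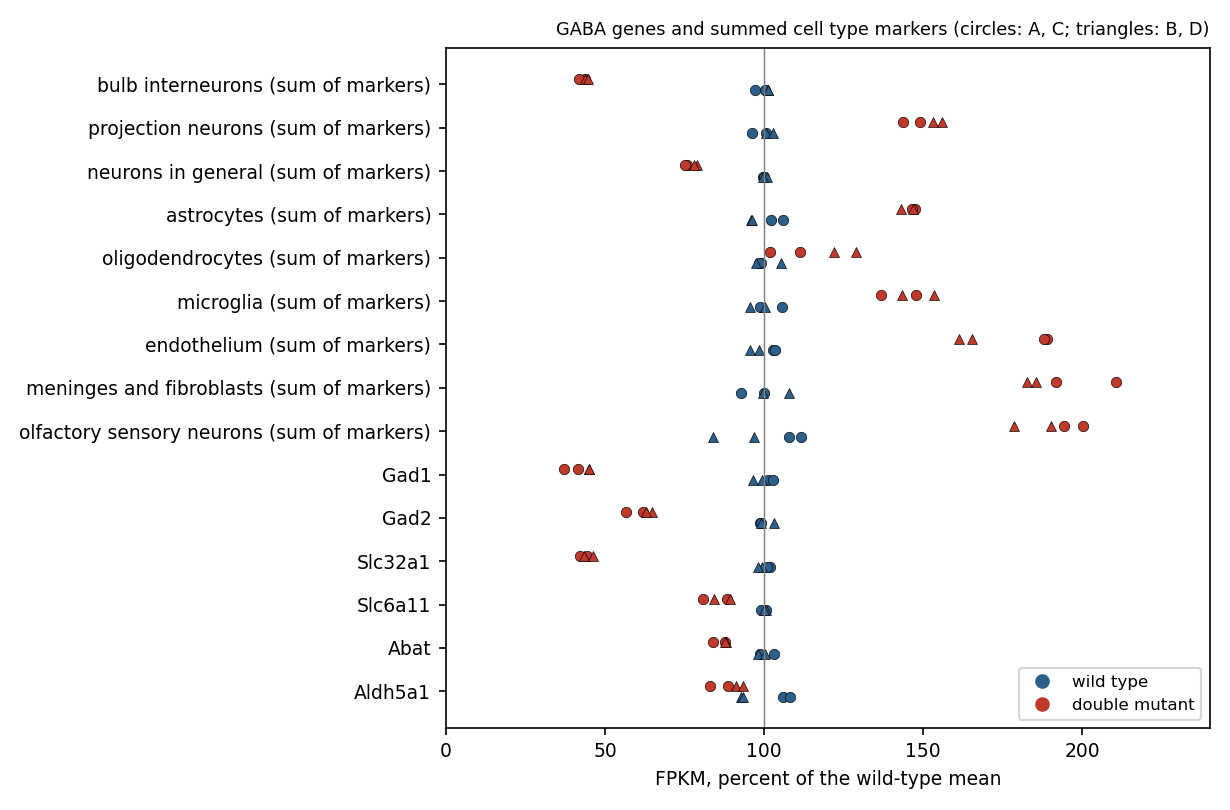
Level in each library as a percent of the wild-type mean (horizontal axis), for summed FPKM of 9 lists of cell type markers and for the 6 GABA genes, with blue points for wild-type and red points for double mutant libraries. Gad1 and Slc32a1 lie where the interneuron markers lie, while Slc6a11, Abat and Aldh5a1 lie closer to 100%, and the astrocyte markers lie above it.

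The genes whose values ran most alike with each member were taken by Pearson correlation over the 8 libraries, among 9322 genes whose mean was 5 FPKM or more. Since the libraries form a pair of groups, most of each correlation comes from the group difference, and it is given as a description. For Gad1 these were Ppm1e, Sp8 and Zfp385b (r = 0.999 each), and for Gad2 Scamp1, Bcat1 and Dennd5b (r = 0.999 each). For Slc32a1 they were Atcay, Cpne6 and Eml5 (r = 0.999 each). Ppm1e, a protein phosphatase gene, went from 107 to 41.5 FPKM on average, and Scamp1, a gene of secretory carrier membranes, went from 83.9 to 55.2 FPKM. For Slc6a11 the nearest were Arf1 and Acd (r = 0.991) and Trim35 (r = 0.986), and for Abat Ctdp1, Ppapdc1a and Mga (r from 0.995 to 0.997). For Aldh5a1 they were Atpaf1 (r = 0.984), Sec22c (r = 0.973) and Trappc2l (r = 0.963). Atpaf1, an assembly factor of mitochondrial ATP synthase, went from 17.3 to 12.7 FPKM.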

How the data were processed

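RNA of 8 olfactory bulb libraries, 4 per group, was analysed from 1 table. FPKM values were deposited by the authors. Per the submitters' processing notes, which give neither role nor order, TopHat and Cufflinks 2.1.1 were used with GRCm38.p4. What annotation, strand setting or filters were used is not given in the sources used here. Beside the FPKM the authors deposited count columns that hold a scaled signal. Per library, 98.2% to 98.4% of these values were whole multiples of 1 step (within 0.02), and division by this step gave the depth. Because the remainder was not whole, no count model was used.

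Values were tested as log2(FPKM + 0.5) for genes averaging 0.5 FPKM or more, with limma 3.58.1 in R 4.3.3 (trend, group as the only term, two-sided, Benjamini-Hochberg adjusted). This pseudocount changes little at the levels of the 6 genes. Single genes and ratios also had an exact two-sided permutation test over 70 assignments. Intervals of ratios use the pooled SD within groups. The fit was tested on simulated data. Alternatives were other pseudocounts, filters, scalings, moderation, blocks, the scaled columns, and leaving out libraries or letters. Coordinates are from GENCODE M21, promoters from RefSeq.

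The members, the gene and marker lists and the tests were chosen with earlier results of these data known. Named are the 6 members, Sp8 and Sp9, from each list of related genes the 2 largest changes and the highest level, the highest gene of each marker list, and the 3 genes most alike with each member. Gene symbols of predicted genes, clones, small RNAs and olfactory receptors were left out of the last. 3 genes of the lists are not reported here and are in no list count. Other steps ran in Python 3.11.15 (numpy 2.4.6, pandas 2.3.3, scipy 1.17.1; figures in matplotlib 3.10.9).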

Additional observations from a re-analysis of the deposited data

Results flagged for a closer look

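Among 118 sets of 4 libraries checked (listed genes and ratios, each within a group), 7 held a library far from the others of its group, where chance gives about 1 in 20. Gad2 was at 67.9 FPKM in wild-type replicate 4, above 64.9 to 65.2 FPKM in the others. Abat was at 88.8 FPKM in double mutant replicate 2, below 92.6 to 93.1 FPKM in the others. The Gad2 to Slc6a11 ratio was 0.222 in double mutant replicate 3, above 0.202 to 0.203. Slc6a12 was at 1.54 FPKM in double mutant replicate 4, below 2.77 to 2.83 FPKM, and Gls2 was at 5.13 FPKM in the same library, above 4.33 to 4.36 FPKM. Slc38a3 was at 97.8 FPKM and Adhfe1 at 4.15 FPKM in wild-type replicate 3. Gad2, Abat, Slc6a12, Gls2, Slc38a3 and Adhfe1 each stayed called in the same direction when that library was left out.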

How the results depend on the processing

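Under 25 alternatives Gad1, Gad2, Slc32a1, Slc6a11 and Abat were called lower each time, with log2 fold changes from -1.35 to -1.14, -0.75 to -0.58, -1.21 to -1.07, -0.24 to -0.11 and -0.22 to -0.09. Aldh5a1 was called in 12 of the 25. It was not called without the filter, on the means of letters, without the trend or with the replicate block (-0.16 each, limma adjusted p from 0.0508 to 0.128), nor under upper quartile (-0.052), trimmed mean (-0.13) and quantile scaling (-0.066), without letter A (-0.11) or C (-0.061). Leaving out 1 library gave -0.20 to -0.12. Of all genes 3439 were called lower under upper quartile scaling. Between 11 and 12 pair ratios passed under the alternatives. Replicate numbers did not pair the libraries (correlation of same-numbered deviations from -0.05 to 0.01, with 1 of 4 best matched to its own number), and the block left 5144 genes lower and 4045 higher.

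Signs turned for genes or ratios that had not passed. Upper quartile and quantile scaling gave 0.056 and 0.028 for Sdha and 0.030 and 0.022 for Sucla2. Suclg1 was -0.0088 without letter A. Mbp was -0.030 under quantile scaling and -0.072 without letter B, and -0.0028 to 0.138 when 1 library was left out. The Slc6a11 to Abat difference was 0.017 in the scaled columns. As a percent of the interneuron markers, the Gad1 difference was 5.14 points in the scaled columns, and that of Slc32a1 was -0.0046 to 0.357 when 1 library was left out. The cause was not tested. Ratios were not tested without a letter, on letter means or with a block, where too few assignments remain.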

Other observations

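The GABA genes were also expressed as a percent of the summed FPKM of cell type markers in the same library, a measure chosen after the data were seen. Set against the 9 bulb interneuron markers, Slc32a1 was 13.4% ± 0.5 in wild type and 13.6% ± 0.2 in double mutants (SD, n = 4, exact permutation p = 0.6571), and Gad1 was 51.3% ± 2.1 and 49.7% ± 3.3 (exact permutation p = 0.4571). Gad2 went from 7.13% ± 0.15 to 10.1% ± 0.4 and Abat from 11.5% ± 0.3 to 22.9% ± 0.3, both without overlap (exact permutation p = 0.0286 each). These shifts restate changes given above, with Gad2 at 61.5%, Abat at 86.8% and the marker sum at 43.5% of wild type. Their p-values are therefore not separate evidence. In the scaled columns, which are not per length, the Gad1 difference turned to 5.14 percentage points (exact permutation p = 0.1143) and that of Slc32a1 to 0.846 (exact permutation p = 0.0286), and without wild-type replicate 4 the Slc32a1 difference was -0.0046.

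Set against the summed 11 astrocyte markers, Slc6a11 was 22.5%, 21.3%, 23.9% and 23.6% in the wild-type libraries and 13.6%, 12.6%, 13.4% and 13.9% in the double mutants, without overlap (exact permutation p = 0.0286). Abat went from 10.6% ± 0.4 to 6.29% ± 0.18 of the same sum (SD, n = 4, exact permutation p = 0.0286). Both shifts likewise restate the changes of the genes and of the astrocyte sum, which stood at 146% of wild type. Against interneuron markers Abat was thus higher in double mutants, and against astrocyte markers it was lower.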
